A study of Mus musculus with 6 samples.

Results

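Shh, Ptch1, Gli1, Wnt10a, Wnt10b, Dkk4, Edar, Bmp2 and Lhx2 are 9 genes of the signals that form the hair follicle bud. The 9 were taken as a list of names, chosen with earlier results of these data known. They are 9 of 21370 mouse genes that could be named on the arrays, and each was read by 1 of 55681 non-control probes. In 3 genotypes of embryonic epidermis, none of the 9 differed from wild type past the significance threshold, an adjusted p under 0.05 in limma with Benjamini-Hochberg adjustment over all probes. The largest difference was that of Bmp2 in epidermis lacking both Sox4 and Sox11, 2.48-fold higher with an adjusted p of 0.0836, and whether it passed depended on the processing.

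RNA of E16 epidermis was compared on 6 arrays with 2 colours. The labels give the strain as 129SvEx:C57BL/6, and in the study's crosses the Cre came from FVB/N mice. Each array held knockout epidermis in 1 colour and epidermis of a wild-type littermate in the other. The knockouts lacked Sox4 (Sox4 cKO), Sox11 (Sox11 cKO) or both genes (dcKO), with 2 arrays each and the dyes exchanged between replicate 1 and replicate 2. In the study's mice the floxed alleles (Sox4 fl/fl, Sox11 fl/fl) were recombined by Krt14-Cre, which acts in keratin 14 positive epithelial cells, so cells of other origin in the sample keep both genes. The founders of these lines also carried a Sox12-/- allele, and neither the Sox12 state of the arrayed embryos nor the Cre status of the wild-type littermates is given in the sources used here. The number of embryos behind each sample is not given either, so the p-values measure the spread between these arrays.

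Hair follicles start as placodes, local thickenings of the embryonic epidermis that grow down as buds over a cluster of dermal cells, the dermal condensate. Wnt signals and the ectodysplasin receptor Edar start a placode, Sonic hedgehog drives its growth into the dermis, and Bmp ligands and secreted inhibitors such as Dkk4 limit where placodes form. Placode cells are a small part of the epidermis, and in bulk RNA fewer cells of a type and less RNA per cell cannot be told apart.

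RefSeq promoter windows were at hand for Ptch1, Edar, Wnt10b and Lhx2. The 250 bases before the start of Ptch1, the hedgehog receptor that is itself a hedgehog target, and of Edar, the only member with a match to a searched motif, are shown 5′ to 3′ on the strand of the gene, with motif matches in capitals (build GRCm38.p6, both genes on the minus strand). The Ptch1 window is chr13:63565736-63565985 and the Edar window chr10:58675697-58675946.
Ptch1: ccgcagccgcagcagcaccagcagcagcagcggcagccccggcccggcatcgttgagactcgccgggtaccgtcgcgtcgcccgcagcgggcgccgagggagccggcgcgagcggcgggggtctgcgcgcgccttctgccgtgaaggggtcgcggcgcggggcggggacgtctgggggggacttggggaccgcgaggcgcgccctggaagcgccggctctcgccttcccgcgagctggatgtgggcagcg
Edar: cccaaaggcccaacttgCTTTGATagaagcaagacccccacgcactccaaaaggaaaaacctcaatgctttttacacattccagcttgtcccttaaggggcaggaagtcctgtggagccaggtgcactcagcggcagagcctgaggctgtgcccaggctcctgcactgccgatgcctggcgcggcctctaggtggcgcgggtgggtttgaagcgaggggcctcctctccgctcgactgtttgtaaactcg
The letters searched on both strands were AACAANG for SOX factors, ATCAAAG for TCF/LEF factors of the Wnt pathway and GACCACCCA for GLI factors of the hedgehog pathway. The SOX and TCF/LEF letters share their last bases in part. Among all 32851 promoter windows of this length, 12.1% held the SOX letters, 3.21% the TCF/LEF letters and 0.225% the GLI letters. The Edar window held CTTTGAT, the TCF/LEF letters read on the other strand, 233 bases before the start. No window of Ptch1, Wnt10b or Lhx2 held any of the 3 motifs, which says only that these letters are not in these windows.

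Each array held 55681 non-control probes on 59305 spots. Of these spots 38.9% to 43.6% were well above background, depending on array and colour, and 183 to 233 were outliers and were left out. Of the Sox4 probes, the first lay below wild type by at least 3.24-fold in the Sox4 cKO (adjusted p = 0.0289) and by at least 3.0-fold in the dcKO (adjusted p = 0.00228). The other was 1.34-fold lower in Sox4 cKO (adjusted p = 0.804) and 1.77-fold lower in dcKO (adjusted p = 0.0777). Signal for Sox11 was close to background on its 2 probes. The brighter had log2 ratios of −0.95 and −0.48 in dcKO, at least 1.36-fold lower (adjusted p = 0.197), but 0.26 and −0.17 in Sox11 cKO (mean 0.05, adjusted p = 0.979). The dimmer had a mean of −0.09 in Sox11 cKO (adjusted p = 0.924). Thus these probes, close to background, measured no loss of Sox11 signal on the Sox11 cKO arrays. The paper states that RT-qPCR on these RNAs, run before the arrays, was used to verify that each knockout had lost its targeted genes. Xist and genes of the Y chromosome gave the same sex for both colours of each array, male on 4 arrays and female on replicate 2 of the 2 single knockouts.

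Values of the members are given as a log2 ratio, knockout over wild type, on each array, replicate 1 first, and then as the mean of both arrays with the limma standard error. In the limma fit all arrays shared 1 estimate of the spread and a dye term was included. In Sox4 cKO 0 of 9 members passed, where 0.00539% of all probes did. In Sox11 cKO 0 of 9 passed, where 0% of all probes did. In dcKO 0 of 9 passed, where 0.828% of all probes did. At an unadjusted p under 0.05 the members numbered 6 in dcKO (9.89% of all probes), against 3 for Sox11 cKO (7.04%) and 4 for Sox4 cKO (6.17%). These counts include probes at or close to background, Shh in dcKO and Sox4 cKO and Edar in Sox11 cKO. The members were also chosen with earlier results of these data known, so the counts only describe them. The median of the 9 members was a log2 ratio of 0.09 in dcKO, 0.03 in Sox11 cKO and 0.01 in Sox4 cKO, beside 0.00 over all probes in each genotype. In dcKO and Sox4 cKO this median is the value of Edar, which was not above background. The median on each dcKO array was −0.13, and without dim probes (Shh and Edar) the dcKO median was −0.43, so its sign is not settled.

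**Figure D1:**
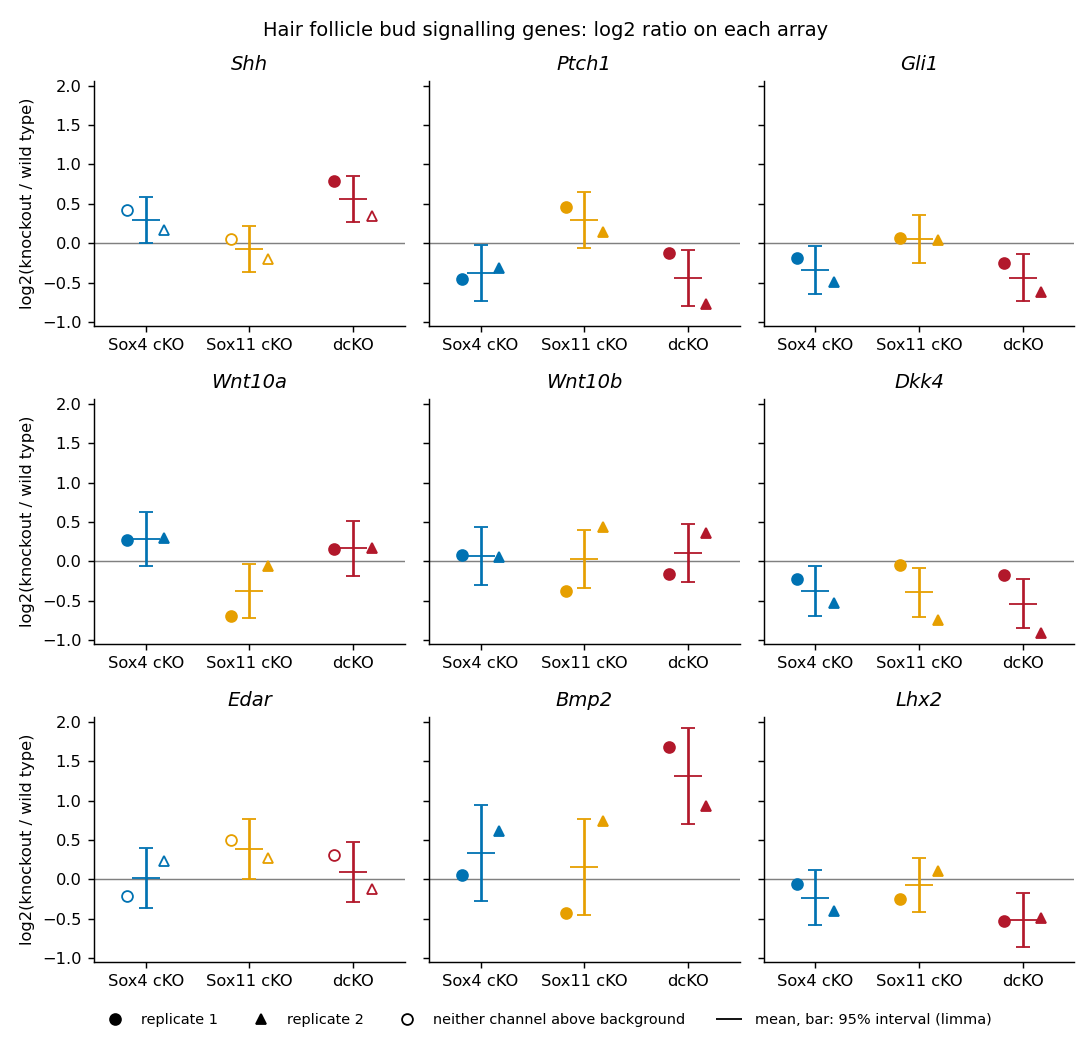
Log2 ratio, knockout over wild type (y axis), of the 9 genes in each genotype (x axis), with circles for replicate 1, triangles for replicate 2, open symbols where neither colour was well above background, and horizontal ticks with bars for the limma mean and its 95% interval. Bmp2 stood at 1.68 and 0.93 in dcKO, above the values of the other genes in dcKO.

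Shh encodes the Sonic hedgehog ligand made by placode cells. Its signal was not well above background in any wild-type sample, and in knockout samples it was above background only on dcKO replicate 1. Its log2 ratios were 0.79 and 0.34 in dcKO, 0.42 and 0.17 where Sox4 alone was lost, and 0.06 and −0.20 where Sox11 alone was lost. The dcKO mean was 0.57 ± 0.13 on the log2 scale (adjusted p = 0.127 by limma). Since only 1 of the 2 dcKO samples and no wild-type sample was above background, no fold is given.

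Ptch1, the receptor that holds the pathway silent until the ligand binds, was well above background in all 12 samples. Its log2 ratios were −0.13 and −0.76 in dcKO, −0.45 and −0.31 with Sox4 alone lost, and 0.46 and 0.14 with Sox11 alone lost. Thus every Sox4 cKO and dcKO array lay below 0 and both Sox11 cKO arrays above it, also after removal of the dye term. By limma the dcKO mean was −0.44 ± 0.16 (SE, n = 2, adjusted p = 0.386), the Sox4 cKO mean −0.38 ± 0.16 (adjusted p = 0.807) and the Sox11 cKO mean 0.30 ± 0.16 (adjusted p = 0.743). The 95% interval in dcKO ran from −0.80 to −0.09, so a fall of this size is not shown to be absent. Gli1, a transcription factor induced by hedgehog signalling and read as its output, had the same signs before the dye term was removed. Its ratios were −0.25 and −0.62 in dcKO, −0.19 and −0.48 for the Sox4 cKO arrays, and 0.07 and 0.04 for the Sox11 cKO arrays. With the dye term removed Sox11 cKO replicate 1 stood at −0.05 and replicate 2 at 0.15, so Gli1 was not on 1 side of wild type there. The dcKO mean was −0.43 ± 0.13 (adjusted p = 0.297 by limma). Of 11155 named genes above background on all arrays, 159 (1.43%) were likewise lower on the 4 Sox4 cKO and dcKO arrays and higher on both Sox11 cKO arrays, the dye term not removed. This pattern was taken from the values of Ptch1 and Gli1 themselves, so its share is no test of a link between them. The tests of the differences did not pass for Ptch1, with −0.68 for Sox4 cKO minus Sox11 cKO (adjusted p = 0.929) and −0.74 for dcKO minus Sox11 cKO (adjusted p = 0.561). In the dcKO minus Sox11 cKO contrast 0.16% of all probes passed, and in Sox4 cKO minus Sox11 cKO 0.0018% did.

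Wild-type signals of Ptch1 and Gli1 differed between arrays as well. Over the 6 wild-type samples Ptch1 had a lowest, median and highest log2 signal of 6.49, 6.93 and 7.41, and Gli1 of 9.57, 9.94 and 10.2. For both genes the lowest wild-type signal was in a littermate of the Sox11 cKO arrays and the highest in that of Sox4 cKO replicate 1. The lowest wild-type signal lay on a Sox11 cKO array for 8 of the 9 members, all but Wnt10a. These 8 include Shh and Edar, which were not above background in any wild-type sample. The share over all named genes was not counted, so this is a description of the members only. The knockout signals of Ptch1 ran from 6.34 in dcKO replicate 2 to 6.96 in Sox4 cKO replicate 1. The Sox11 cKO samples, at 6.94 and 6.86, stood near the top of that range, and below the highest wild-type signal of 7.41.

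**Figure D2:**
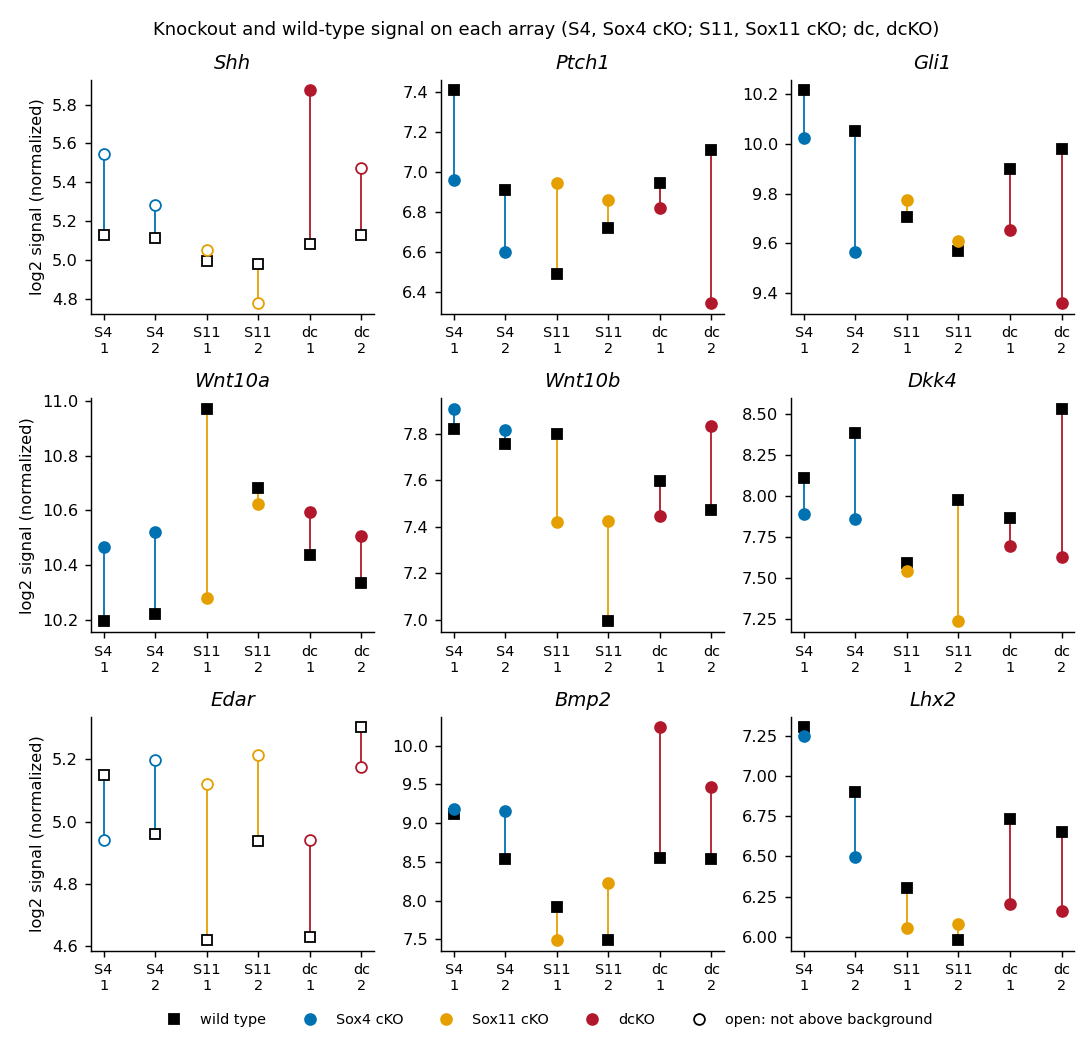
Normalized log2 signal (y axis, scaled for each gene) of wild-type (squares) and knockout (circles) epidermis on each of the 6 arrays (x axis), joined by a line, with open symbols where the signal was not well above background. For 8 of the 9 genes, all but Wnt10a, the lowest wild-type signal was on a Sox11 cKO array. Shh and Edar among them were not above background in wild type, and the share over all genes was not counted.

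Wnt10a and Wnt10b encode Wnt ligands of the placode, and both were above background in all samples. Wnt10a had log2 ratios of 0.16 and 0.17 in dcKO and 0.27 and 0.30 in Sox4 cKO, against −0.69 and −0.06 on the Sox11 cKO arrays. Sox11 cKO was the genotype below 0, with a mean of −0.37 ± 0.15 (adjusted p = 0.707 by limma), and the difference Sox4 cKO minus Sox11 cKO was 0.66 (adjusted p = 0.929). The wild-type littermate of Sox11 cKO replicate 1 had the highest wild-type Wnt10a signal, 11.0 on the log2 scale, against a median of 10.4 over the 6 wild-type samples. Wnt10b had ratios of −0.15 and 0.36 in dcKO, 0.09 and 0.06 where Sox4 was lost, and −0.38 and 0.43 where Sox11 was lost. Its arrays disagreed in sign in Sox11 cKO and dcKO, though with the dye term removed the dcKO values were 0.06 and 0.15. The dcKO mean of 0.10 had a 95% interval from −0.26 to 0.47.

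Dkk4 encodes a secreted inhibitor of Wnt signalling that is itself made in placodes. Its values were −0.17 and −0.90 in dcKO, −0.22 and −0.53 on the Sox4 cKO arrays, and −0.04 and −0.74 on the Sox11 cKO arrays as log2 ratios. It was thus below wild type on all 6 arrays, as were 446 of 11155 named genes above background on all arrays (4%). In each genotype the ratio was lower on replicate 2 than on replicate 1, and a dye term fitted to all arrays takes up such a shift. The dcKO mean was −0.54 ± 0.14 (adjusted p = 0.187 by limma), and 3.65% of those 11155 genes were as low or lower in dcKO.

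Edar encodes the receptor for ectodysplasin, which turns on NF-kB in placode cells. Its signal was not well above background in either colour on any array, so no fold is given. Its log2 ratios spanned −0.21 to 0.50 over the 6 arrays, with opposite signs on the arrays of Sox4 cKO and of dcKO.

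Bmp2 encodes a ligand made in the placode and also in differentiating epidermis. Its log2 ratios were 1.68 and 0.93 in dcKO, both above those of the other arrays, which were −0.42 and 0.74 in Sox11 cKO and 0.05 and 0.61 in Sox4 cKO. The dcKO mean was 1.31 ± 0.27 (SE, n = 2), with a 95% interval from 0.70 to 1.92 and an adjusted p of 0.0836 by limma. Of 11155 named genes above background on all arrays, 67 (0.601%) had a dcKO mean as high or higher. The difference from Sox4 cKO was 0.97 (adjusted p = 0.778, with 0.145% of all probes passing), that from Sox11 cKO was 1.15 (adjusted p = 0.605), and that from the sum of both single knockouts was 0.82 (adjusted p = 0.836, with 0.0862% of all probes passing). Dye correction with ComBat, the method the study names, put Bmp2 past the threshold (adjusted p = 0.0374), together with Shh (0.0103), Dkk4 (0.0228), Gli1 (0.0271) and Lhx2 (0.0423). With ComBat 5 of 9 members and 6.52% of all probes passed in dcKO, against 0.828% of all probes with the dye term. The limma fit after ComBat has no term for the dye, so the degree of freedom spent on the dye is not counted there. Without dcKO replicate 1 the Bmp2 estimate was 0.50, and without dcKO replicate 2 it was 2.12. Each is the ratio of the 1 remaining dcKO array after removal of a dye term fitted on the single-knockout arrays. The remaining array was assumed to vary like the others.

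**Figure D3:**
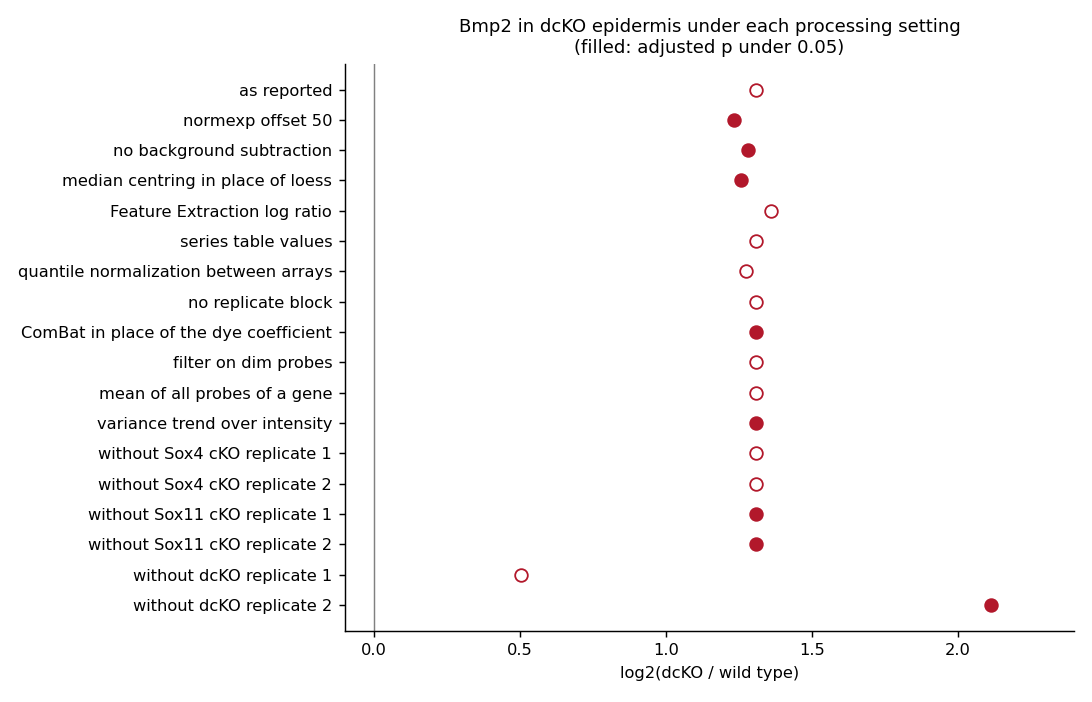
Mean log2 ratio of Bmp2 in dcKO over wild type (x axis) under the reported setting and 17 alternatives (y axis), filled where the adjusted p was under 0.05. The value stayed between 1.23 and 1.36 under the alternatives that kept all arrays, passed under 8 of the 17, and was 0.50 and 2.12 with 1 dcKO array left out.

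Lhx2, a LIM homeobox transcription factor of the placode and of later follicle stem cells, had nearly equal log2 ratios on both dcKO arrays, −0.53 and −0.49. The other arrays had −0.25 and 0.10 in Sox11 cKO and −0.06 and −0.40 in Sox4 cKO, so the dcKO arrays were the lowest. The dcKO mean was −0.51 ± 0.15 (SE, n = 2), with a 95% interval from −0.86 to −0.17 and an adjusted p of 0.274 by limma. The wild-type signal ran from 5.98 to 7.30 on the log2 scale. Each ratio is taken against the littermate on the same array, so this range between arrays is not the spread of the ratios.

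Lists of names for these pathways, which hold members as well as other genes, gave 4 genes past the threshold in dcKO, all lower. None of the 4 was a member. The lists were chosen with earlier results of these data known, which limits what their counts show. Of 21 hedgehog pathway genes measured 0 passed, of 40 Wnt pathway genes 1 was lower, of 21 Eda and NF-kB genes 0 passed, of 26 Bmp pathway genes 2 were lower, and of 34 follicle epithelium genes 2 were lower, against 0.307% of all probes lower in dcKO. None passed in Sox4 cKO or Sox11 cKO. At an unadjusted p under 0.05 in dcKO 4.96% of all probes were higher and 4.93% lower. The follicle epithelium list had 0 genes higher and 12 lower of 34 by that measure, Wnt 2 and 8, Bmp 2 and 7, hedgehog 3 and 6, and Eda and NF-kB 5 and 0. The hedgehog counts include the members Shh (close to background), Ptch1 and Gli1, and the Wnt counts include Dkk4, so they are not separate from the member counts. The lists share genes with each other too. Their 5 medians, from −0.16 to 0.09, compare with 0.00 over all probes.

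Krt17, a keratin of placodes, follicles and periderm, fell by 1.37 on the log2 scale, with ratios of −1.08 and −1.65 (adjusted p = 0.0051). Sostdc1, a secreted inhibitor of both Wnt and Bmp signalling, had ratios of −0.52 and −1.05 (adjusted p = 0.0336). Smad6, an intracellular inhibitor of Bmp signalling, had ratios of −0.65 and −0.83 (adjusted p = 0.0377). Pdgfa, an epithelial growth factor that acts on dermal cells, had ratios of −0.65 and −0.85 (adjusted p = 0.0446). All 4 were lower on both dcKO arrays, and the Smad6 signal was above background on 1 of 2 knockout arrays. Without dcKO replicate 2 none of the 4 passed (adjusted p = 0.0799 for Krt17, 0.486 for Sostdc1, 0.431 for Smad6 and 0.246 for Pdgfa). Without dcKO replicate 1 the 3 genes other than Krt17 did not pass (adjusted p = 0.238, 0.382 and 0.573). Without any 1 of the 4 single-knockout arrays Smad6 (adjusted p = 0.0548 to 0.0563) and Pdgfa (0.0528 to 0.0665) did not pass. With the Feature Extraction log ratio none of the 4 passed, and no probe of the array did in dcKO.

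Among the genes with the largest dcKO differences that missed the threshold were the hedgehog genes Ccnd1, a cyclin (−0.77, adjusted p = 0.106), and Gas1, a hedgehog co-receptor (0.63, adjusted p = 0.152). In the Wnt list, the secreted inhibitor Wif1 stood at −0.91 (adjusted p = 0.356) and Notum at 0.65 (adjusted p = 0.178). In the Bmp list, where 10 of 26 genes stood above 0 and 16 below, the ligand Bmp7 stood at 0.79 (adjusted p = 0.076). In the NF-kB list Relb, Traf6 and Nfkb2 stood at 0.55, 0.50 and 0.40 (adjusted p = 0.233, 0.218 and 0.338). In the follicle list Igfbp5 stood at −1.02 (adjusted p = 0.0976).

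**Figure D4:**
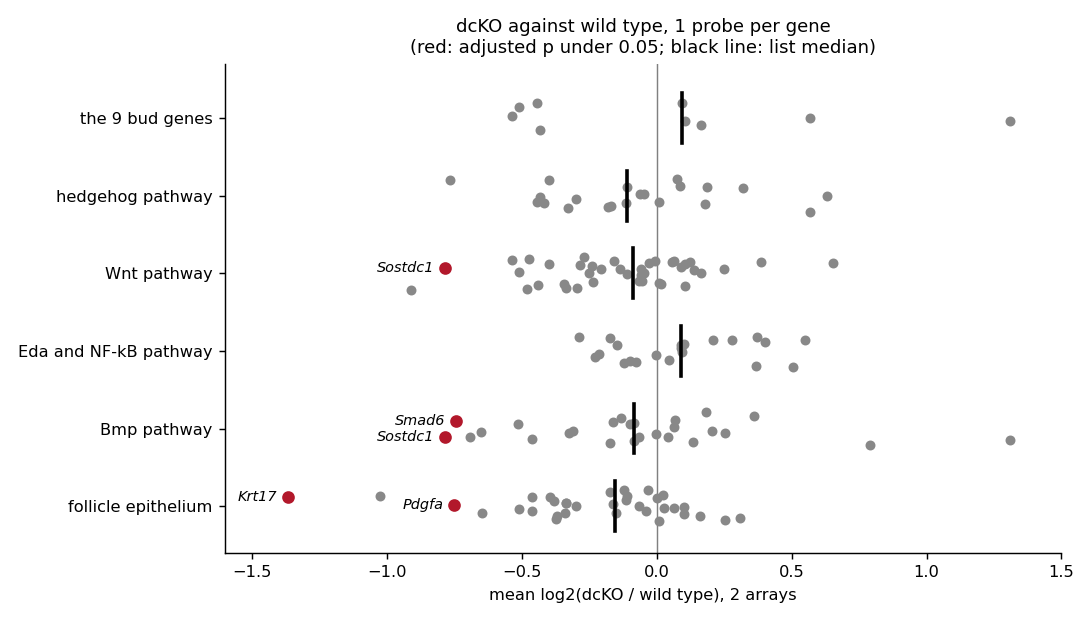
Mean log2 ratio of dcKO over wild type (x axis) for 1 probe per gene of the 9 bud genes and of 5 lists (y axis), with a black line at each list's median and genes past an adjusted p of 0.05 in red. Only Krt17, Sostdc1, Smad6 and Pdgfa passed, Sostdc1 in both the Wnt and the Bmp list. The lists hold members as well as other genes.

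Marker genes of other cell types also differed on these arrays. Of 9 periderm markers, keratins and others of the transient outer layer, 3 fell in dcKO (Krt4, Krt19 and Krt17, adjusted p = 0.00177, 0.0183 and 0.0051). Their median was −1.08 and −0.61 on the dcKO arrays, −1.12 and −0.49 on the Sox11 cKO arrays, and 0.48 and 0.39 on the Sox4 cKO arrays. Their summed log2 signal ran from 13.24 to 14.05 in wild-type samples and was 12.5 in both dcKO samples. Krt17 stands in this list and in the follicle list, and the part of periderm in its fall was not tested. The 12 dermal fibroblast markers had a median log2 ratio of −1.10 on both dcKO arrays, 0.67 and −0.35 on the Sox11 cKO arrays, and −1.75 and 0.61 on the Sox4 cKO arrays, with 0 of 12 passing in any genotype by limma and 6 lower and 2 higher at an unadjusted p under 0.05 in dcKO, against 4.93% and 4.96% of all probes. Their summed log2 signal ran from 12.9 to 14.5 in wild-type and from 13.0 to 13.7 in knockout samples, with 9 to 11 of the 12 above background. Ptch1 and Gli1 are also expressed in the dermis, where hedgehog from the bud acts, and the part of dermal RNA in their ratios was not tested. The 10 skeletal muscle markers had a median of −1.87 on Sox4 cKO replicate 1, where the wild-type sample held the higher signal. The 14 dermal condensate markers had medians of −0.09 in dcKO and 0.00 in each single knockout. Only 4 to 7 of these 14 were above background in any wild-type or knockout sample. Dim probes thus weigh on these medians, which do not show that the condensate was unchanged. The 10 suprabasal markers, which label differentiating epidermis, had medians of 0.47 in dcKO, 0.56 in Sox11 cKO and 0.07 in Sox4 cKO. By array they were 0.47 and 0.40 in dcKO, 0.15 and 0.93 in Sox11 cKO, and 0.17 and −0.03 in Sox4 cKO. The wild-type sample of Sox11 cKO replicate 2 had the lowest summed log2 signal of these markers, 17.2, where the highest wild-type sum was 18.3. The part of suprabasal cells in the Bmp2 ratio was not tested. The 10 basal markers had medians from −0.02 to 0.03.

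**Figure D5:**
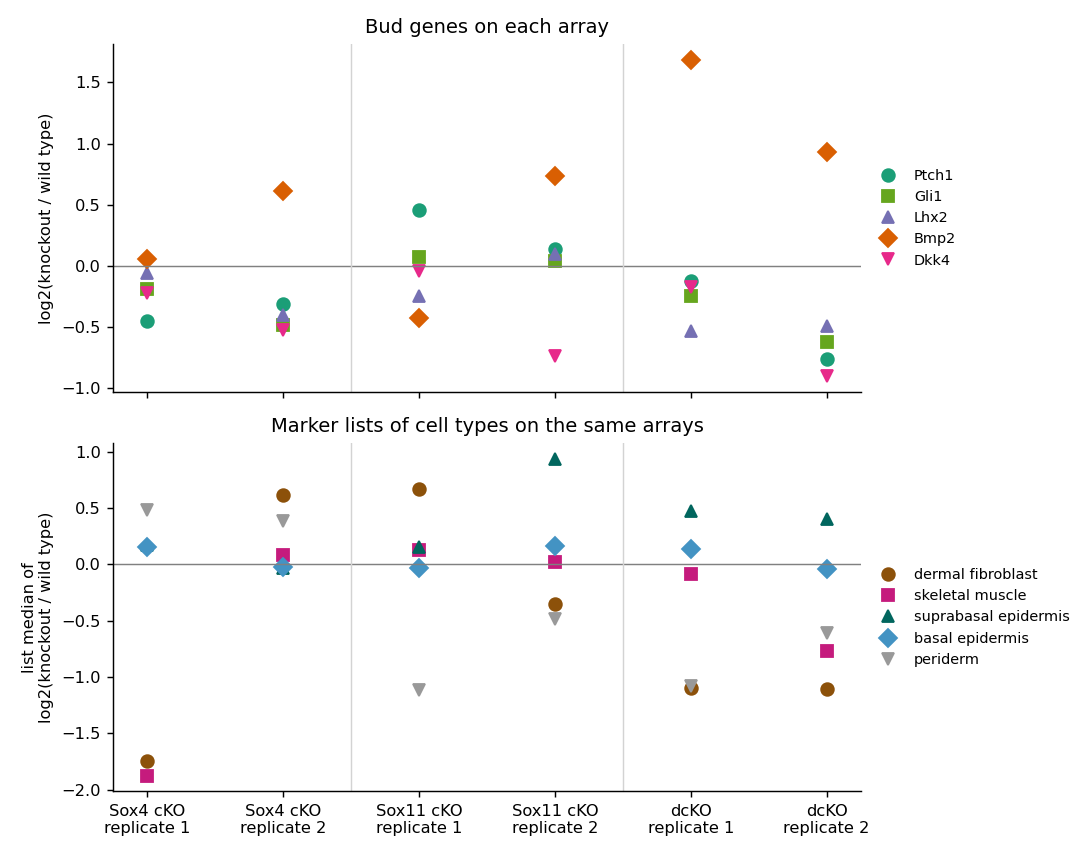
Log2 ratio, knockout over wild type (y axis) on each array (x axis) for 5 bud genes (upper panel) and the median over each of 5 marker lists (lower panel). The dermal fibroblast median was −1.75 on Sox4 cKO replicate 1 and −1.10 on both dcKO arrays, and above 0 on Sox4 cKO replicate 2 and Sox11 cKO replicate 1.

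Shh was not measured above background on all arrays, so Ptch1 was taken for a search of genes with a like pattern. Among 11154 named genes, the highest Pearson correlations with its log2 ratios over the 6 arrays, after removal of the dye term, were those of Srrm2 (0.9947), Tmem214 (0.9929), Socs4 (0.9903), Lcmt1 (0.99) and Hook3 (0.9892). With 6 arrays and so many genes such values are a description of these arrays. With the dye term removed, the ratios of Srrm2 spanned −0.20 to 0.13 and those of Ptch1 −0.63 to 0.32.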

How the data were processed

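The deposited scanner files, made by the authors with Agilent Feature Extraction 11.0.1.1 per the labels, hold spot intensities, log10 ratios and other 0 or 1 flags. The series table holds log2 ratios that the authors made with limma 3.5 (normexp with offset 16, loess). Here median intensities were processed the same way in limma 3.58.1 (R 4.3.3), outlier spots were dropped and spots of a probe averaged. The result matched the deposited log2 table with a slope of 1. The fit had 3 genotype terms and a dye term, on 6 arrays of 1 slide, with 2 residual degrees of freedom, and was tested on simulated data. The number of arrays limits the precision.

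Replicate number and dye coincide in the labels, so the dye term is the replicate block. Deviations of same-numbered arrays correlated at 0.258, 0.306 and 0.328. Probes were named through RefSeq accessions (28341 probes, 21370 symbols). Named were all 9 members, list genes past the threshold, the 3 largest dcKO differences per list of the same sign on both arrays, passing or defining markers, the Sox genes and the 5 genes most like Ptch1. Members and lists were chosen with earlier results of these data known. Alternatives changed the background correction, normalization, dye handling (ComBat), dim-probe filter, probe averaging, variance trend and arrays used.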

Additional observations from a re-analysis of the deposited data

Results flagged for a closer look

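Ptch1, Gli1 and Wnt10a each had every array of 1 genotype on 1 side of wild type and every array of another genotype on the other side. The share of all genes with such signs was not counted, so this is a description of these genes only. For Ptch1 the log2 difference was −0.68 for Sox4 cKO minus Sox11 cKO (adjusted p = 0.929) and 0.74 for Sox11 cKO minus dcKO (adjusted p = 0.561). For Gli1 the same differences were −0.39 (adjusted p = 0.929) and 0.49 (adjusted p = 0.659). For Wnt10a they were 0.66 (adjusted p = 0.929) and −0.54 (adjusted p = 0.665). None of the 6 differences passed in limma. These signs are of the ratios before the dye term was removed, and with it removed Gli1 stood at −0.05 on Sox11 cKO replicate 1. The Gli1 mean in Sox11 cKO, 0.05, changed sign with median centring, to −0.05.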

How the results depend on the processing

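Over 17 alternatives the number of members passing in dcKO was 0 as reported, 3 with a normexp offset of 50, 2 with no background subtraction, 1 with median centring, 5 with ComBat and 3 with a variance trend, and 0 to 1 with 1 array left out. In dcKO minus Sox11 cKO it was 1 with ComBat, and 0 to 1 with 1 array left out there and in dcKO minus Sox4 cKO. Bmp2 and the other dcKO members kept their direction in every alternative, except Edar, which was −0.0543 with no background subtraction, −0.115 with the Feature Extraction log ratio and −0.18 to 0.37 with 1 array left out. Edar in Sox4 cKO was −0.0117 with median centring, −0.44 with the Feature Extraction log ratio and −0.37 to 0.40 with 1 array left out. In Sox11 cKO with median centring Gli1 was −0.0535 and Wnt10b −0.0644. With 1 array left out, Sox4 cKO values ran from −0.27 to 0.42 for Wnt10b and −0.50 to 0.0403 for Lhx2, and Sox11 cKO values from −0.10 to 0.20 for Gli1, −0.26 to 0.31 for Wnt10b, −0.33 to 0.18 for Lhx2 and −0.47 to 0.79 for Bmp2. The cause was not tested.

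The median of the members in Sox4 cKO was −0.33 with the Feature Extraction log ratio, −0.23 with the filter on dim probes, which drops Shh and Edar, and −0.0749 to 0.0403 with 1 array left out. In Sox11 cKO it was −0.26 to 0.20 with 1 array left out. In dcKO the reported 0.09 became 0.0394 with an offset of 50, −0.0543 with no background subtraction, 0.0212 with median centring, −0.115 with the Feature Extraction log ratio, 0.0921 with the series table, 0.0866 with quantile normalization, −0.434 with the filter, and −0.18 to 0.0931 with 1 array left out.

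List genes passing in dcKO, with an offset of 50, no background subtraction, ComBat and a variance trend in that order, numbered 4, 2, 7 and 3 for hedgehog (0 as reported), 4, 4, 6 and 4 for Wnt (1), and 7, 7, 9 and 7 for Bmp (2). Eda and NF-kB genes (0) numbered 3, 1 and 4 under the first 3 of these, and follicle epithelium genes (2) numbered 4, 9 and 4 with the offset, ComBat and the trend. Bmp genes numbered 5 with median centring and 4 with the filter, and follicle genes 1 with the mean of all probes of a gene. With the Feature Extraction log ratio 0 Wnt, Bmp and follicle genes passed. With no replicate block, which equals dropping the dye term, 0 Wnt genes, 0 Bmp genes and 1 follicle gene passed, and Bmp2 had an adjusted p of 0.113. With 1 array left out the ranges were 0 to 1 for Wnt, 0 to 3 for Bmp and 0 to 2 for follicle genes. In Sox4 cKO, where 0 follicle genes passed as reported, 2 passed with the offset, with no background subtraction and with the trend, 1 with ComBat, and 0 to 1 with 1 array left out. All probes passing in dcKO numbered 461 as reported, 1376 with the offset, 1105 with no background subtraction, 1162 with the trend, 3631 with ComBat, 270 with no replicate block, 0 with the Feature Extraction log ratio, and 165 without dcKO replicate 1. Shh and Edar lay at background, so signal limits what their ratios show.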
